A study of Mus musculus with 20 samples.

Results

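Glycolytic enzymes were followed through ribosome footprints of mouse embryonic fibroblasts. The set was chosen by name and not by a rule on measured values, although earlier results of these data were known. It held 6 transcript identifiers of 5 genes (Pgk1, Eno1, Ldha, Pkm and Gapdh), of which those listed in at least 1 library were kept. Of the 15354 transcripts listed in any library, 3 were members. Gapdh (ENSMUST00000117757, coding length 1080 nt) was listed in all 20 libraries and Eno1 (ENSMUST00000080926, 1305 nt) in 19. The identifier given for Pgk1, ENSMUST00000033585 (1254 nt), was listed in 4. Ldha, Pkm and the other Gapdh identifier were not analysed here. The pairing of identifiers with symbols came with the choice of members, since no table used here pairs them.

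The cells were of strain C57BL/6J and fell into 3 backgrounds, each fed or starved of amino acids. Control cells received neither agent, Ogt knockout cells received 0.5 µM 4-OHT for 24 h and then fresh medium for 24 h, and Thiamet-G cells received 0.1 µM of the compound for 16 h. Starvation lasted 2 h in DMEM with a serum abbreviated DFBS, which the labels do not spell out, and the growth medium was DMEM with fetal bovine serum. Ogt encodes the transferase that attaches O-GlcNAc to intracellular proteins, and Thiamet-G inhibits the enzyme that removes it. The labels name no Ogt allele, no Cre driver and no vehicle for the control cells, so loss of Ogt and exposure to 4-OHT with the later medium change cannot be told apart. Ribo-seq sampled fragments of 25 to 35 nt under all ribosomes in 12 libraries, 2 for each of 6 groups. The assay termed eIF3-80S-seq sampled fragments of 20 to 70 nt from 80S ribosomes associated with the initiation factor eIF3. It had 2 libraries each for fed and starved control cells and 1 library for every remaining group. Whether libraries of a group came from separate cultures is not stated in the labels, and p-values therefore reflect only how these libraries vary, which may be technical variation. Fibroblast markers could not be checked, because none of the identifiers matched the reference table.

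Glycolysis converts glucose to pyruvate in the cytosol and yields ATP and NADH without oxygen. Gapdh oxidises glyceraldehyde 3-phosphate and reduces NAD+, Pgk1 makes ATP in the next step, and Eno1 (alpha-enolase) makes phosphoenolpyruvate. Pkm turns that into pyruvate, which Ldha reduces to lactate. These enzymes are abundant in cultured fibroblasts, and Gapdh is often used as a reference gene. Several of their genes are known targets of the transcription factors HIF-1 and Myc.

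The level of a transcript is given as RPKM, the reads on it scaled to its length in kilobases and to the library total. It is relative to the rest of the library, so a change in total translation cannot be seen in it. Whole reads were recovered from the RPKM values, and Ribo-seq libraries held 844403 to 5846130 reads against 52148 to 359282 in eIF3-80S-seq. Within each Ribo-seq group, 1 library listed transcripts from 1 read and the other from 5 reads, and these 2 sets of libraries are called processing batches below. The sets were inferred from the listed counts alone, and whether the libraries were handled apart is not known from them. Eno1 has an annotated near-identical copy, Eno1b, and Gapdh has processed pseudogenes, and how reads that match several places were counted is not given in the sources used here. The levels of both genes are therefore uncertain to that extent.

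RefSeq (GRCm38.p6) places Eno1 on chromosome 4, from 150236708 to 150248879, and Gapdh on chromosome 6, from 125161852 to 125166467. Their footprint levels were high and low in the same Ribo-seq libraries, so windows of 250 bases before annotated transcript starts are shown to let the sequences be compared. Footprints do not measure promoter activity. A gene can have several starts, and the second window of Eno1 and that of Gapdh lie inside the gene spans given above, not upstream of them. Eno1 has 3 windows in the table, and the third, which overlaps the second, is not shown. Capitals mark GCGTG on either strand (CACGC on the strand shown), one form of the core of the hypoxia response element.

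Eno1, chr4:150236458-150236707, plus strand: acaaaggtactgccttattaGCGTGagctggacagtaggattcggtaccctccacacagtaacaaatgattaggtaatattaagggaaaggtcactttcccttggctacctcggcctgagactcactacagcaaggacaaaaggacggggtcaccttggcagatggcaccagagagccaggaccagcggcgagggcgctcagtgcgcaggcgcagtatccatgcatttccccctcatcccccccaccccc

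Eno1, chr4:150236947-150237196, plus strand: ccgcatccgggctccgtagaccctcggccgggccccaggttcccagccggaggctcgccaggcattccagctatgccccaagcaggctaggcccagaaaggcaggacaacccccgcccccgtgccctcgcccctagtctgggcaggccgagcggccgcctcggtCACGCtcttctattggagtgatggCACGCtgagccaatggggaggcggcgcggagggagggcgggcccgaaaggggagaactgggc

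Gapdh, chr6:125165774-125166023, minus strand: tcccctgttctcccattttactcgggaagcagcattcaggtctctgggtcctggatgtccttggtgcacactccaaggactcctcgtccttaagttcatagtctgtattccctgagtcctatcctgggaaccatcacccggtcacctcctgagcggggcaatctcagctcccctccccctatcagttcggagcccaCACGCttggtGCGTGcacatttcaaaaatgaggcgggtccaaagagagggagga

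GCGTG was found 1 time and 2 times in the windows of Eno1 and 2 times in that of Gapdh, and 28.2% of all 32851 promoter windows of this length held it. ACGTG, the other form of that core (in 16.6% of windows), was not found in the 3 windows. The E-box CACGTG (6.02%), which contains ACGTG, and the ATF4 composite element TGATGNAAT (0.816%) were not found either. All motifs were searched on both strands, and a match is a description of the letters only.

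In Ribo-seq, Eno1 and Gapdh were low in fed control and fed Thiamet-G cells and several times higher in starved cells of both backgrounds. They were also high in fed knockout cells, and starvation left them near that level there. This pattern was shared by both genes, but none of its comparisons passed across all transcripts in the main limma fit. Some passed under other settings, given below.

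The level of Eno1 was 44.4 and 25.5 RPKM in the 2 fed control libraries, from 194 and 101 reads. It was 329 and 149 RPKM in starved control cells, from 2508 and 292 reads. The starved libraries were above the fed ones without overlap, as for 18.3% of the transcripts tested. Another 2061 of 10936 transcripts had the opposite order without overlap. In Thiamet-G cells Eno1 stood at 24.8 and 5.55 RPKM when fed, from 111 and 14 reads. Starved Thiamet-G cells had 253 and 192 RPKM, from 287 and 240 reads. These were again above the fed libraries without overlap, as for 15.6% of transcripts (1837 had the opposite order). The value of 5.55 RPKM was the lowest of the 12 and the least precise, with an exact 95% counting interval of 3.03 to 9.31 RPKM. Intervals of this kind cover counting error only. In knockout cells Eno1 stood at 151 and 283 RPKM with feeding (851 and 499 reads) and at 168 and 172 RPKM after starvation (642 and 189 reads). Here the starved libraries lay between the fed ones.

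The level of Gapdh was 159 and 86.8 RPKM in fed control cells, from 577 and 284 reads. Starved control cells had 618 and 581 RPKM, from 3901 and 944 reads. Again the starved libraries were above the fed ones without overlap, as for 18.3% of transcripts (2061 had the opposite order). Fed Thiamet-G cells had 107 and 82.8 RPKM (396 and 173 reads) and starved ones 854 and 316 RPKM (802 and 327 reads), and the starved libraries of this background were the farthest apart of the 6 Ribo-seq groups for Gapdh. In knockout cells Gapdh stood at 510 and 370 RPKM with feeding (2385 and 539 reads) and at 536 and 285 RPKM after starvation (1694 and 260 reads). The fed libraries of the knockout lay between the starved ones.

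**Figure D1:**
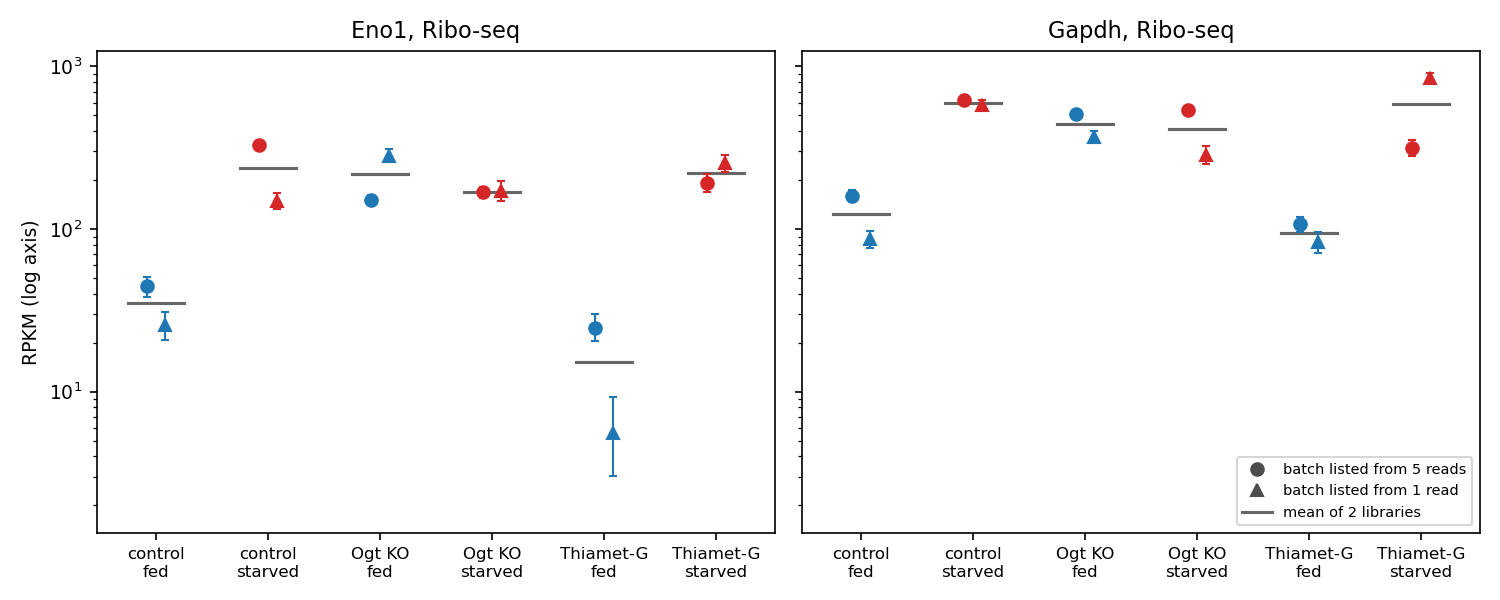
RPKM of Eno1 (left) and Gapdh (right) in each of the 12 Ribo-seq libraries on a log axis, fed in blue and starved in red, with exact 95% counting intervals and a line at the mean of each pair; circles are libraries listed from 5 reads and triangles those listed from 1 read. The fed control and fed Thiamet-G libraries are the lowest 4 for both genes, at 5.55 to 44.4 RPKM for Eno1 and 82.8 to 159 RPKM for Gapdh.

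By group mean, Eno1 was ordered as fed Thiamet-G (15.2 ± 13.6 RPKM, SD, n = 2), fed control (35.0 ± 13.3), starved knockout (170 ± 2.33), fed knockout (217 ± 93.7), starved Thiamet-G (223 ± 43.2) and starved control cells (239 ± 127). The lowest 2 groups overlapped within their SDs, as did neighbours among the upper 4, and the gap between fed control and starved knockout exceeded their SDs. For Gapdh the order was fed Thiamet-G (94.8 ± 17.0), fed control (123 ± 51.4), starved knockout (411 ± 178), fed knockout (440 ± 99.4), starved Thiamet-G (585 ± 381) and starved control cells (599 ± 26.3). The same break between fed control and starved knockout cells was seen, and neighbours on either side of it lay within their SDs. Both genes thus had the same order of groups.

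Eno1 stood at the 35.1st to 67.9th percentile of the transcripts listed in its library in the 4 fed control and Thiamet-G libraries, and at the 87.1st to 93.6th in the 6 starved libraries. Gapdh moved less in rank, from the 80.0th to 86.6th percentile in those 4 libraries to the 91.7th to 97.6th in the 6 starved ones. Together, Eno1 and Gapdh held 0.00967% to 0.0230% of the reads of the 4 libraries and 0.0532% to 0.125% of the reads of the other 8. The ranks of Eno1 in the 4 libraries are low for an enzyme described above as abundant, and the reason was not tested.

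In all 8 libraries that were starved or knockout, both genes were above all 4 fed control and fed Thiamet-G libraries. Of 10936 transcripts tested, 1.98% had this arrangement. This division of the libraries follows the levels of the 2 genes themselves and not a factor of the design. The share is therefore a description and not a test. Restricted to control and Thiamet-G cells, the 4 starved libraries were above the 4 fed ones for both genes, as for 4.68% of transcripts. Over all backgrounds the 6 starved libraries were not all above the 6 fed ones for either gene, since the fed knockout libraries were among the high ones (0.21% of transcripts had no overlap in this direction).

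Averaged over the 3 backgrounds, the log2 fold change on starvation was 2.08 ± 0.41 (SE) for Eno1 and 1.46 ± 0.35 for Gapdh. These changes are on the scale of log2(RPKM + 1) after rescaling libraries by their median ratio. Among 10936 transcripts the Eno1 change ranked 18th from the top and that of Gapdh 119th, against a median of -0.01. Neither passed in limma, with Benjamini-Hochberg adjusted p = 0.0741 for Eno1 and 0.167 for Gapdh, and no transcript was called higher (0%, against 0.174% called lower; 418 had an unadjusted p under 0.05 and a higher value). With the processing batch as a block, both passed with the same fold changes, at adjusted p = 0.0180 for Eno1 and 0.0498 for Gapdh, among the 0.192% of transcripts called higher. Libraries of a batch deviated together from their group means, with correlations above 0.1 in 15 of 15 pairs of groups. Unlisted values taken as 0 may add to this, and among transcripts listed in every library it was 14 of 15. Over all alternatives the adjusted p ran from 0.000356 to 0.308 for Eno1 and from 0.000901 to 0.41 for Gapdh, and the sign of both was positive in each. Limma-voom on recovered reads without the block called both (adjusted p = 0.0208 and 0.0393, with 0.0605% of transcripts called higher), and with the block as well (2.07% called higher). Limma-voom scaled libraries by their totals and not by median ratios, and the median change over all transcripts was 0.09 with and without the block. Among transcripts listed in every library, Eno1 passed without the block (adjusted p = 0.0438, with 0.0239% called higher) and Gapdh did not (adjusted p = 0.112). The average includes the knockout cells, in which the values had the other sign. Without the knockout libraries it was 3.27 for Eno1 (adjusted p = 0.0631) and 2.28 for Gapdh (adjusted p = 0.0770).

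In control cells alone, the log2 fold change on starvation was 2.57 ± 0.71 for Eno1 and 2.22 ± 0.60 for Gapdh. These placed Eno1 above 99.4% and Gapdh above 98.8% of the transcripts tested. Neither passed in limma (adjusted p = 0.51 and 0.498), and 0% of transcripts were called in either direction, with 744 at an unadjusted p under 0.05. Both genes passed in limma-voom on recovered reads with the batch as a block, at adjusted p = 0.00535 for Eno1 and 0.00526 for Gapdh, when 1.08% of transcripts were called higher. This combination was added after seeing the data. The median change over all transcripts was 0.17 with it, against 0.02 in the main fit. Neither gene passed with limma-voom alone (adjusted p = 0.117 for Eno1 and 0.129 for Gapdh). In limma with the batch alone the adjusted p was 0.188 for both. Within batches the log2 ratio was 2.70 and 2.43 for Eno1 and 1.78 and 2.67 for Gapdh. Both genes were therefore higher in starved cells within each batch.

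In Thiamet-G cells, the log2 fold change on starvation was 3.96 ± 0.71 for Eno1, the fifth highest of the 10936 transcripts, and 2.32 ± 0.60 for Gapdh. Single libraries moved both values. Eno1 was at 3.0 without fed Thiamet-G replicate 2 (rank 67 of 10881) and at 4.94 without fed replicate 1, and Gapdh was at 1.46 without starved Thiamet-G replicate 1 and at 3.18 without starved replicate 2. Adjusted p-values in limma were 0.483 and 0.733, and 0% of transcripts were called. In limma-voom with the batch as a block Eno1 passed (adjusted p = 0.0416, with 0.0404% of transcripts called higher) and Gapdh did not (adjusted p = 0.0525). That setting was added after seeing the data. With limma-voom alone neither gene passed (adjusted p = 0.940 for Eno1 and 0.998 for Gapdh). The within-batch log2 ratios of Eno1 were 2.65 and 5.28 and those of Gapdh 1.30 and 3.35. The larger value of Eno1 contains the fed library with 14 reads, so its size rests on a low count.

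In knockout cells, the change on starvation was -0.29 ± 0.71 for Eno1, with a 95% interval of -1.82 to 1.25, and -0.16 ± 0.60 for Gapdh, with an interval of -1.46 to 1.15. Both values lay inside the middle of the distribution over all transcripts, at the 31.8th and 39.1st percentile, and the adjusted p was 1 for both. The sign was not stable, with batch values of 0.12 and -0.70 for Eno1 and 0.04 and -0.35 for Gapdh. The difference of this change from that in control cells, the interaction of starvation with the knockout, was -2.85 ± 1.00 for Eno1 and -2.38 ± 0.85 for Gapdh. The unadjusted p was 0.0140 and 0.0155, as for the 0.722% of transcripts with a lower value and an unadjusted p under 0.05, but the adjusted p was 1 for both genes and 0% of transcripts were called. The difference between the backgrounds was thus not shown by this test across all transcripts. For Thiamet-G the same interaction was 1.40 ± 1.00 for Eno1, with an interval of -0.77 to 3.57, and 0.10 ± 0.85 for Gapdh, with an interval of -1.75 to 1.94. Neither passed (adjusted p = 1).

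**Figure D2:**
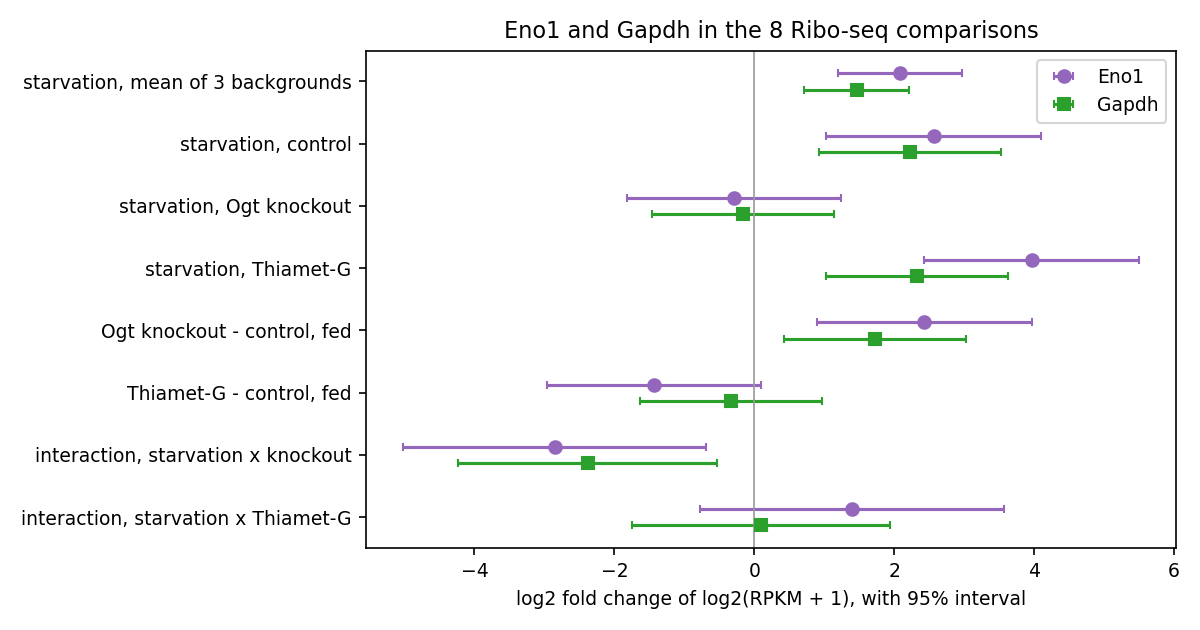
Log2 fold changes of log2(RPKM + 1) with 95% intervals for Eno1 (circles) and Gapdh (squares) in the 8 Ribo-seq comparisons of the limma fit with 6 residual degrees of freedom, not adjusted for the number of transcripts. Starvation in knockout cells lies at -0.29 and -0.16, whereas starvation in control cells lies at 2.57 and 2.22.

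In fed cells, both genes were higher in the knockout libraries than in the control libraries, without overlap, as for 16.9% of transcripts. The log2 fold change was 2.43 ± 0.71 for Eno1 and 1.72 ± 0.60 for Gapdh, above 99.5% and 97.5% of transcripts. Neither passed (unadjusted p = 0.00465 and 0.0137, adjusted p = 1 for both in limma), and 0% of transcripts were called, while 1.51% were higher at an unadjusted p under 0.05. Within batches the log2 ratio was 1.49 and 3.37 for Eno1 and 1.42 and 2.03 for Gapdh. This comparison and starvation in control cells share the 2 fed control libraries, so a low value in those libraries enters both, as well as the interaction. The fed knockout libraries were also above the fed Thiamet-G libraries for both genes, and 10.6% of transcripts were higher in them than in all 4 fed control and Thiamet-G libraries.

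Thiamet-G against control in fed cells gave -1.44 ± 0.71 for Eno1, with an interval of -2.97 to 0.10, and -0.34 ± 0.60 for Gapdh, with an interval of -1.64 to 0.97. The adjusted p was 1 for both. For Eno1 the within-batch values were -0.90 and -1.97, both below 0, and the change was -0.46 without fed Thiamet-G replicate 2 and -2.41 without replicate 1.

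**Figure D3:**
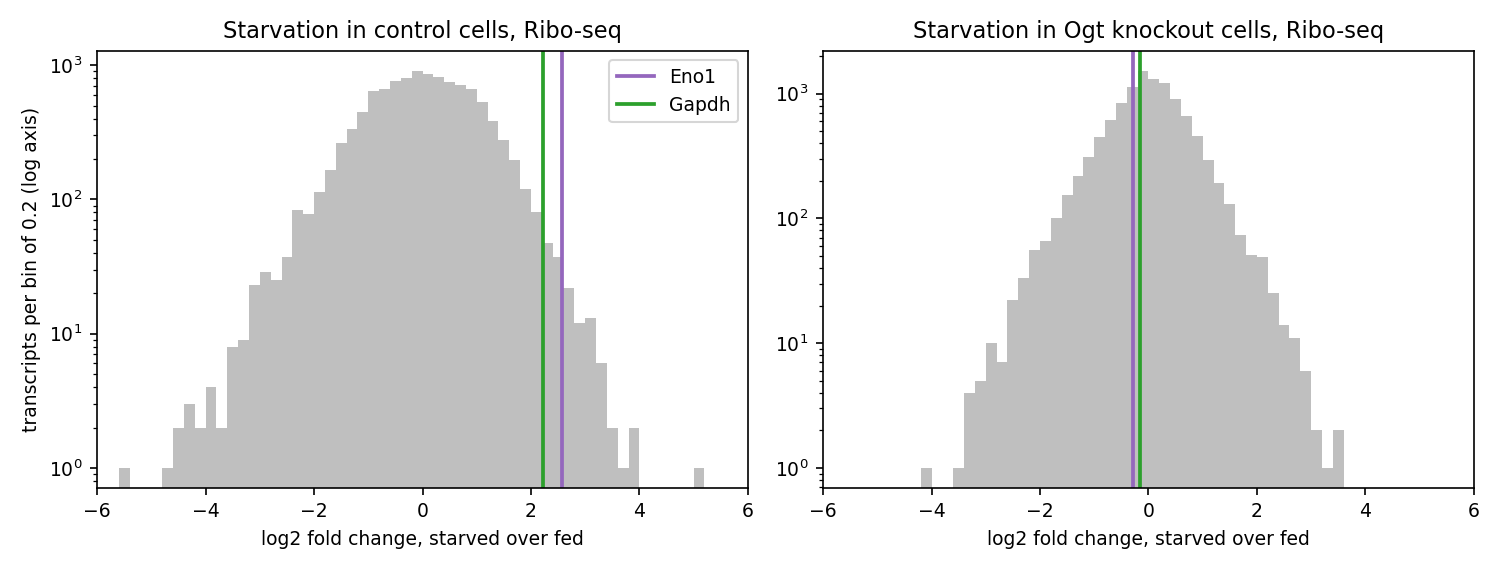
Log2 fold changes on starvation of all 10936 transcripts tested in Ribo-seq, in bins of 0.2 on a log count axis, for control cells (left) and Ogt knockout cells (right), with vertical lines at Eno1 and Gapdh. In control cells both genes are above 98.8% of transcripts or more, and in knockout cells they lie at the 31.8th and 39.1st percentile.

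Another measure separated the same libraries. Coding regions of at most 600 nt held 33.8% to 43.1% of the reads in the 4 fed control and fed Thiamet-G libraries, and 21.1% to 30.9% in the other 8. Both genes have coding regions above that length. Among 2074 transcripts with coding lengths of 1000 to 1400 nt, which includes both, the median change on starvation in control cells was 0.06, with a 95th percentile of 1.70. The changes of Eno1 (2.57) and Gapdh (2.22) were above that percentile. The part of this shift in read distribution in the result was not tested.

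**Figure D4:**
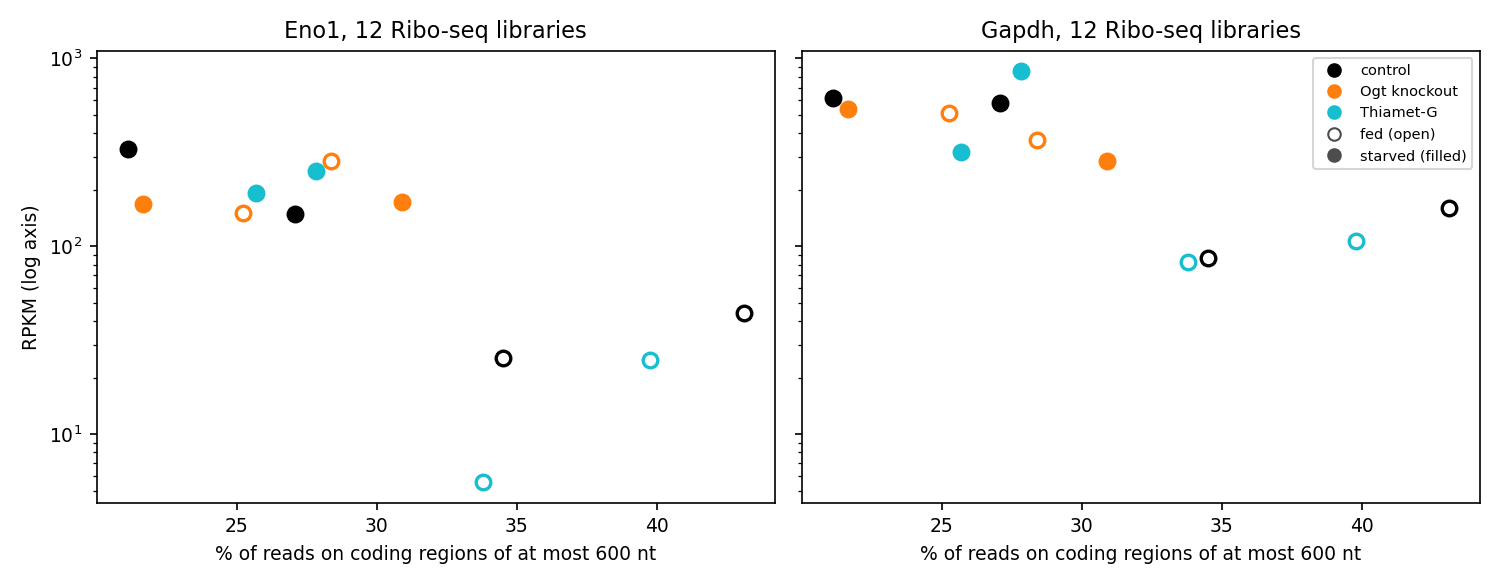
RPKM of Eno1 (left) and Gapdh (right), on a log axis, against the percentage of reads on coding regions of at most 600 nt in the 12 Ribo-seq libraries; open symbols are fed, filled symbols starved, and colours give the background. The 4 open control and Thiamet-G symbols stand apart at 33.8% to 43.1%, and the other 8 libraries lie at 21.1% to 30.9%.

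Gapdh had the higher level per length in all 12 Ribo-seq libraries. The ratio of Gapdh to Eno1 had a median of 3.38 and ran from 1.31 in a fed knockout library to 14.9 in the fed Thiamet-G library where Eno1 had 14 reads. Across the 12 libraries the rescaled log2 levels of both correlated with Pearson's r = 0.891, as a description of libraries that share their groups and depth. Among 6896 transcripts listed in all 12 libraries with a mean of at least 10 RPKM, ENSMUST00000025506 was most like Eno1 (r = 0.968) and ENSMUST00000028059 most like Gapdh (r = 0.964). Their levels are given as a description, since they were picked for this likeness. The first had group means of 20.9 and 70.4 RPKM in fed and starved control cells and 80.4 and 58.1 RPKM in fed and starved knockout cells. The second had 30.4 and 134 RPKM in control cells and 113 and 90.0 RPKM in knockout cells.

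On ribosomes associated with eIF3, the starvation pattern of Ribo-seq was not seen for either gene, at a depth that left Eno1 with 8 to 52 reads and Gapdh with 19 to 223 reads per library that listed them. Gapdh was at 143 and 501 RPKM in fed control cells (23 and 108 reads) and at 337 and 279 RPKM in starved control cells (19 and 39 reads). The starved libraries lay between the fed ones. In the single libraries of the other groups, Gapdh was at 138 RPKM in fed and 359 RPKM in starved knockout cells (23 and 89 reads), and at 575 RPKM in fed and 324 RPKM in starved Thiamet-G cells (223 and 48 reads). In RPKM as deposited, the ratio of starved to fed was 2.61 (exact 95% counting interval 1.63 to 4.32) in the knockout and 0.565 (0.404 to 0.774) with Thiamet-G. After rescaling by median ratios it was 2.27 and 0.681. The directions of these single pairs were opposite, and they have no replicate check.

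Eno1 was at 46.3 and 130 RPKM in the fed control libraries (9 and 34 reads). In starved control cells it was at 47.4 RPKM (8 reads) in replicate 2 and was not listed in replicate 1, where 4 reads, the most that listing from 5 reads allows, would be 58.8 RPKM. The starved library that listed Eno1 lay between the fed ones. In the single libraries of the knockout, Eno1 was at 84.3 RPKM with feeding and at 66.7 RPKM after starvation (17 and 20 reads), and Thiamet-G cells had 111 and 61.5 RPKM (52 and 11 reads). In RPKM as deposited, the ratio of starved to fed was 0.792 (0.394 to 1.61) in the knockout and 0.555 (0.261 to 1.08) with Thiamet-G, and both intervals contain 1. After rescaling by median ratios it was 0.690 and 0.669.

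**Figure D5:**
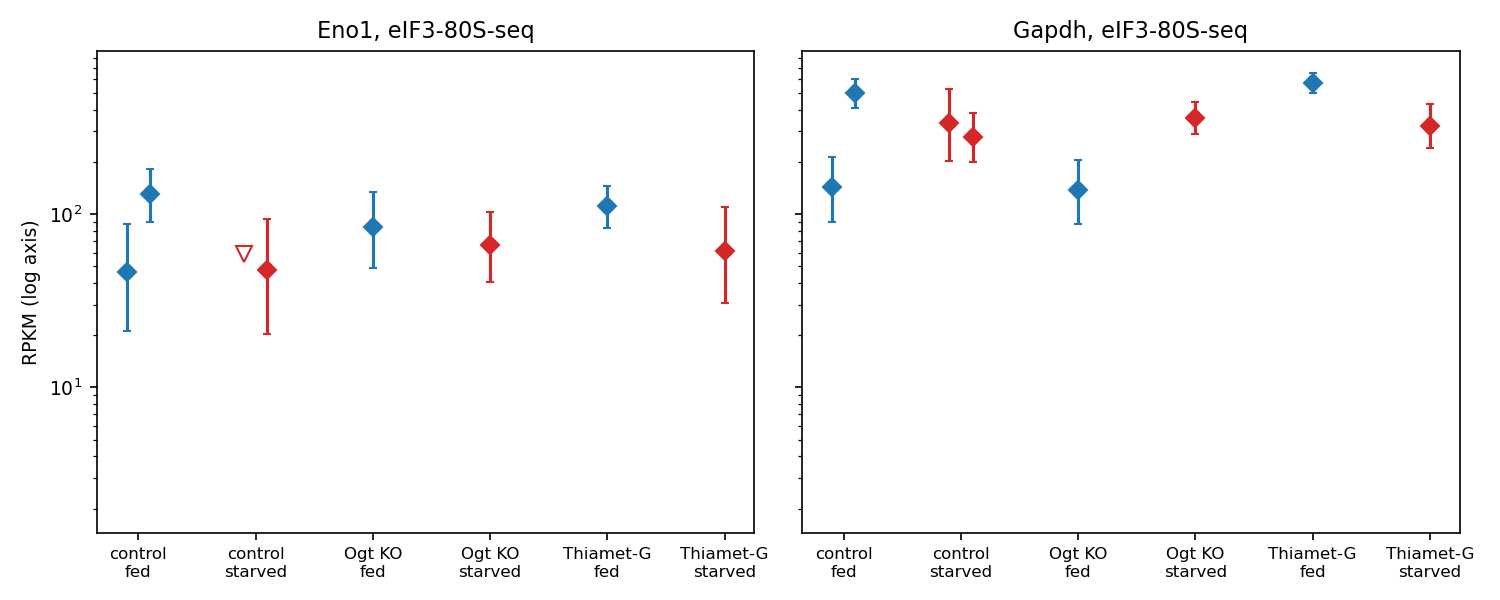
RPKM of Eno1 (left) and Gapdh (right) in the 8 eIF3-80S-seq libraries on a log axis, fed in blue and starved in red, with exact 95% counting intervals; the open triangle marks the RPKM of 4 reads for the starved control library that did not list Eno1. Fed Gapdh ranges from 138 to 575 RPKM and encloses the 4 starved libraries, at 279 to 359 RPKM.

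In the additive fit of background and starvation with 4 residual degrees of freedom, the log2 fold change was 0.16 ± 0.44 for Gapdh, with an interval of -0.90 to 1.21, and -2.12 ± 1.34 for Eno1. Neither passed (limma adjusted p = 0.914 and 0.676), and 0.284% of transcripts were called lower and 0% higher. The value of Eno1 rests on the unlisted library taken as 0. With unlisted values at 4 reads it was -0.65 (adjusted p = 0.48).

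Between the assays, fed control cells had similar excesses of eIF3-80S over Ribo-seq level for both genes. The ratio of mean RPKM as deposited, without the rescaling used in the fits, was 2.53 for Eno1 and 2.61 for Gapdh. The libraries disagreed widely, and neither passed in the fit of all 20 libraries, with log2 differences of 0.94 ± 1.39 (adjusted p = 0.664) and 0.93 ± 0.70 (adjusted p = 0.366). In that comparison 0.427% of transcripts were called higher and 24% lower, and the median log2 difference over all transcripts was -1.72. In starved control cells the difference was -1.02 ± 0.70 for Gapdh (adjusted p = 0.267) and -5.00 ± 1.39 for Eno1 (adjusted p = 0.0185), when 30% of transcripts were called lower and 0.37% higher. The median over all transcripts was -2.44 there. Gapdh was above 74.9% of them, but above only 8.12% among transcripts listed in every library. The balance of calls and the medians depended on how unlisted values were treated. With unlisted values at 4 reads, 4358 transcripts were called higher and 91 lower in starved control cells, and 3190 higher and 498 lower in fed control cells. Among transcripts listed in every library, 17 were called higher and 3 lower in starved cells, and 28 and 36 in fed cells. Limma-voom called 10 higher and 0 lower in starved cells, and 21 and 0 in fed cells. The size of the Eno1 difference in starved control cells, and its call, rest on the unlisted library taken as 0 to the following extent. With 4 reads in its place the difference was -2.10 (adjusted p = 0.0276), and 0.685% of transcripts were called lower with unlisted values filled in this way. The call was lost without starved control replicate 1 of eIF3-80S-seq (-2.30, adjusted p = 0.111), without either starved control library of Ribo-seq (-4.57, adjusted p = 0.0912, and -5.43, adjusted p = 0.0686), with quantile normalization (adjusted p = 0.0565) and with limma-voom (adjusted p = 0.982).

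The other groups had 1 eIF3-80S library each and no test. In RPKM as deposited, the ratio of eIF3-80S to Ribo-seq level was 7.31 for Eno1 and 6.06 for Gapdh in fed Thiamet-G cells. In fed knockout cells it was 0.388 and 0.313. The Ribo-seq levels of both genes were low in the former group and high in the latter. In starved Thiamet-G cells the ratio was 0.277 for Eno1 and 0.554 for Gapdh, and in starved knockout cells 0.393 and 0.874.

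ENSMUST00000033585 behaved unlike the other members. Of the 12 Ribo-seq libraries, 3 listed it, each with 1 read, at 0.530 RPKM in starved control, 0.591 RPKM in fed knockout and 0.944 RPKM in starved knockout cells. In the 6 libraries listed from 5 reads, up to 4 reads could go unlisted, which would be 0.546 to 3.33 RPKM. In the 3 remaining libraries, listed from 1 read, it had no read. For these a bound of 3 reads, or 0.789 to 2.75 RPKM, was set to allow for counting error. It is not a listing limit. A level this low goes against the label Pgk1, a broadly expressed housekeeping enzyme. The sources used here do not say whether the identifier is that gene or its paralog Pgk2, which is known from the testis. How reads that match several places were counted is not given either, and its part in the low level was not tested. The transcript is therefore called by its identifier. Of the eIF3-80S libraries only replicate 2 of starved control cells listed it, at 55.5 RPKM from 9 reads (interval 25.4 to 105), and the other 7 allowed up to 8.88 to 61.2 RPKM. The difference between the assays in starved control cells was 2.48 ± 1.32 (limma adjusted p = 0.163), and starvation in eIF3-80S-seq gave 1.41 ± 1.35 (adjusted p = 0.684). With quantile normalization the former was 3.42 and passed in limma (adjusted p = 0.0442), when 101 of 10514 transcripts were called higher. All of these values rest on that single library.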

How the data were processed

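The authors deposited 1 file per library with transcript identifiers and RPKM. Cutadapt, STAR and GRCm38 are named in the submitters' processing notes. The read counter, its handling of multiply matching reads, the annotation release and any listing threshold are not stated there. The members, lists and tests were chosen with earlier results of these data known. Reads were recovered from RPKM steps for 13278 transcripts (relative tolerance 1e-09), a procedure tested on simulated data. Lengths were scaled to multiples of 3 by construction.

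Groups came from titles. RPKM was rescaled by median ratios, unlisted values were taken as 0, and limma 3.58.1 (R 4.3.3; lmFit and trended eBayes, two-sided) was run on log2(RPKM + 1) of transcripts averaging 1 RPKM or more, which understates changes of low transcripts. Benjamini-Hochberg adjustment covered all transcripts tested, at 0.05. Ribo-seq, eIF3-80S and joint fits had 6, 4 and 8 residual degrees of freedom. Processing batches were defined by whether under 1% of recovered transcripts had under 5 reads. They pair the Ribo-seq libraries in the sense that libraries of a batch deviated together from their group means (r of 0.188 to 0.453, above 0.1 in 15 of 15 pairs of groups); unlisted values taken as 0 may add to this. Among transcripts listed in every library, 14 of 15 pairs were above 0.1. Alternatives changed the pseudocount, filter, rescaling, test, block and libraries. Limma-voom took library totals, without rescaling by median ratios. Values of 4 reads for unlisted transcripts, voom or full listing with the batch block, and leaving out the knockout were added after seeing the data. Named genes were all listed members and, for each of Eno1 and Gapdh, the transcript with the most similar pattern. Lists of other glycolytic genes and of cell type markers were not analysed here, since 0 identifiers matched a symbol.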

Additional observations from a re-analysis of the deposited data

How the results depend on the processing

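Of 207 fold changes of Eno1 and Gapdh under settings other than left-out libraries, 0 reversed. In limma without voom, dropping the filter, full listing and the blocks left the fold changes as they were, so these settings could not reverse them. Of the 207, 193 kept their side of the threshold, 12 gained a call and 2 lost one. For starvation averaged over backgrounds, Eno1 gained it at 2.08 among transcripts listed in every library, with the processing batch as a block and with both, at 2.18 with limma-voom and at 2.14 with limma-voom and the batch. Gapdh gained it at 1.46 with the batch, alone or together with full listing, at 1.56 with limma-voom and at 1.55 with limma-voom and the batch. With limma-voom and the batch, a setting added after seeing the data, starvation also gained it in control cells (Eno1 2.76, Gapdh 2.33) and in Thiamet-G cells (Eno1 3.88). Eno1 in eIF3-80S-seq against Ribo-seq, starved control cells, lost it at -4.23 with quantile normalization and at -3.31 with limma-voom. The causes were not tested.

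The 19 transcripts called for averaged starvation became 0 with a pseudocount of 0.1, without a filter or with quantile normalization, 34 with full listing, 49 with limma-voom, 100 with the batch, 104 with full listing and the batch, 318 with limma-voom and the batch and 2 without knockout libraries. The 0 calls in control cells became 9 with full listing and the batch and 202 with limma-voom and the batch, and those in Thiamet-G cells 7 with the latter. The 22 calls for eIF3-80S starvation became 180 with full listing, 7 with quantile normalization, 2 without rescaling, 185 with limma-voom and 199 with unlisted values at 4 reads. These were 0 higher and 22 lower, against 76 and 104 with full listing, 2 and 5 with quantile normalization, 80 and 105 with limma-voom and 65 and 134 with 4 reads. Averaged starvation, with 0 higher and 19 lower, had 6 and 43 with limma-voom, 21 and 79 with the batch and 205 and 113 with both. Between assays, 2577 calls in fed control cells became 64 with full listing, 836 with quantile normalization and 21 with limma-voom, and 3206 in starved control cells became 20, 682 and 10.

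Replicate numbers follow the titles. File names give the opposite numbers for the pair of starved Thiamet-G libraries in Ribo-seq, and numbered that way the replicate block would be the batch block, under which Eno1 and Gapdh passed for averaged starvation. As numbered in the titles, libraries with the same number did not deviate together in every pair of groups (correlations of -0.394 to 0.453, 10 of 15 above 0.1). With the replicate block of the titles, 7 transcripts were called for averaged starvation and 4 for eIF3-80S starvation, and no call of Eno1 or Gapdh changed.

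Leaving out 1 library at a time gave 0 to 25 calls for averaged starvation, 0 to 2 for eIF3-80S starvation, and 1459 to 2960 and 1428 to 4949 between assays in fed and starved control cells. The log2 fold change crossed 0 for starvation in knockout cells (Eno1 -0.79 to 0.21, Gapdh -0.54 to 0.22) and, for Gapdh, for Thiamet-G against control (-0.83 to 0.16), its interaction (-0.76 to 0.94) and eIF3-80S starvation (-0.19 to 0.48). Eno1 in eIF3-80S-seq against Ribo-seq in starved control cells ran from -7.67 to -2.30. Depth limits the eIF3-80S values, where Eno1 had at most 52 reads.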
